A study of Bubalus bubalis with 6 samples.

Results

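Adipose tissue holds macrophages, blood vessels and a stroma of fibroblasts and progenitor cells between its adipocytes, and RNA of the whole tissue carries transcripts of all of them. The 6 genes described here were taken as markers of those other cells: CD163 for macrophages, VWF and JAM2 for endothelium, and THY1 and MME for stroma. A2M, which several cell types make, was assigned to none of them. Which cells carried these transcripts in this tissue was not tested. The 6 genes were chosen by symbol from the table of circRNAs, circular RNAs closed by a back-spliced junction. In it 19 of 14990 circRNAs came from them. Their mRNA was read in the table of transcripts through the Ensembl identifiers listed for those circRNAs. These reached 6 of 79746 transcripts, 1 per gene, and any other transcripts of the genes are not in the values given. A total of 3970 genes could be named in this way. The rule names the 6 by symbol and uses no measured value, but they were chosen with earlier results of these data known. Only genes with a back-spliced read in these libraries could be picked.

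The animals were Chinese buffaloes of the swamp type, held under like conditions on 1 farm in Xinyang. The tissue was subcutaneous fat of 3 young (6 months old) and 3 adult (30 months old) slaughtered animals, with 1 rRNA-depleted library per animal. No allele, agent or treatment separated the groups, and age was the only factor that the labels give. The study compared the ages to look for RNAs involved in fat deposition.

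CD163 is a scavenger receptor of macrophages that takes up haemoglobin bound to haptoglobin. VWF, von Willebrand factor, is a clotting glycoprotein stored by endothelial cells, and JAM2 is an adhesion molecule of the junctions between them. THY1 is a surface glycoprotein of fibroblasts and mesenchymal stromal cells, and MME is the membrane peptidase neprilysin, which in human also marks stromal and progenitor cells. A2M is a secreted protease inhibitor that traps a wide range of proteases in blood and tissue.

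The FPKM of all transcripts summed to 1093380 to 1237790 in the young libraries and to 657311 to 721755 in the adult libraries. The paper reports more clean reads for the young than for the adult group. The number of fragments behind a single FPKM value is not given. FPKM is a level per transcript length and per sequenced fragments. The table is on a log scale and does not name the unit, and FPKM with a log base of 2 was taken from the range and sums of the values and from Cufflinks in the submitters' notes. On this reading levels of different genes can be set side by side within a library. Back-spliced reads numbered 10745 to 17680 per library. The labels give no sequencing batch or date. In whole tissue, fewer cells of a type and less RNA per cell cannot be told apart. Of a list of 15 adipocyte genes 6 could be named, and all 6 were at 24.9 FPKM (ACACA in young replicate 2) or more in every library. Of 8 skeletal muscle genes 2 could be named, NEB and RYR1, with mean FPKM of at most 0.449 in either group. NEB was at 1.07 FPKM in young replicate 3. No other tissue was measured, so these levels do not test the label of adipose tissue.

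Of the 6 marker genes, 3 were lower in adults (CD163, THY1 and A2M), 2 were higher (VWF and MME), and JAM2 did not pass the test. The test was limma on log2(FPKM + 1) over the 14691 genes and transcripts whose FPKM averaged 0.5 or more, at an adjusted p under 0.05. Over all features tested, 10.5% were called higher and 9.3% lower in adults, and the median log2 fold change was 0.01. The values of young and adult libraries did not overlap for any of the 6 genes, against 42.7% of all features tested. Because the 6 were chosen with earlier results known, setting them beside these shares is no test of the 6 as a group.

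**Figure D1:**
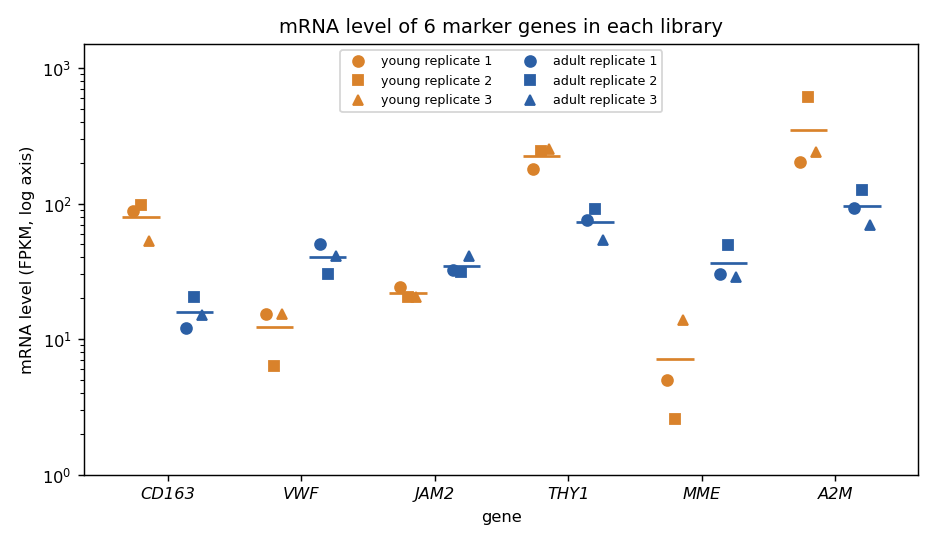
mRNA level (FPKM, log axis) of the 6 marker genes in each library, with young libraries in orange and adult libraries in blue, 1 symbol per replicate and a bar at the mean of each group. CD163, THY1 and A2M sit lower in all 3 adult libraries and VWF, JAM2 and MME sit higher, and MME in young libraries spreads from 2.58 to 13.9 FPKM.

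The macrophage receptor CD163 (ENSBTAG00000019669) stood at 88.4 FPKM in young replicate 1, 97.2 in replicate 2 and 53.1 in replicate 3. The adult libraries held 12.01, 20.3 and 15.1 FPKM in the same order of replicates. Every young library was above every adult library, and young replicate 3 was the lowest of the young. The mean level was 79.6 ± 23.3 FPKM (SD, n = 3) in young and 15.8 ± 4.21 FPKM (SD, n = 3) in adults, 5.03-fold higher in young. On the log2 scale CD163 fell by 2.24 (SE 0.30, limma adjusted p = 0.00394). The call held with each library left out in turn, with adjusted p from 0.00468 to 0.0278. In young animals CD163 was the third highest of the 6 genes in every library, and in adults it was the lowest in every library.

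VWF (ENSBTAG00000012265), the clotting factor of endothelial cells, had levels of 15.4, 6.32 and 15.3 FPKM in the young libraries, in the order of replicates 1 to 3 that is kept from here on. Its adult levels were 49.95, 30.0 and 41.3 FPKM. Young replicate 2 was the lowest of all libraries, and the lowest adult library was still above the highest young one. The mean rose from 12.3 ± 5.20 FPKM in young to 40.4 ± 10.004 FPKM in adults (SD, n = 3 each), with a log2 fold change of 1.70 (SE 0.37, limma adjusted p = 0.0207). The call was lost without adult replicate 1, 2 or 3, with adjusted p of 0.0846, 0.0538 and 0.0739, and held without each young library.

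JAM2 (ENSBTAG00000000603), the junctional adhesion molecule, was at 24.2, 20.6 and 20.6 FPKM in young and at 32.2, 31.2 and 41.3 FPKM in adult libraries. The young libraries lay close together, and all adult libraries were above them. The means were 21.8 ± 2.10 and 34.9 ± 5.59 FPKM (SD, n = 3 each). The log2 fold change of 0.65 (SE 0.19) did not pass the test (limma adjusted p = 0.0566), nor did it with any library left out (adjusted p 0.0679 to 0.160). JAM2 had the smallest spread of the 6 genes within the young group, with a ratio of highest to lowest of 1.18, and was the fourth highest of the 6 in all libraries.

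THY1 (ENSBTAG00000019627), the stromal surface glycoprotein, was at 179, 244 and 253 FPKM in young and at 75.2, 90.7 and 53.6 FPKM in adult libraries. The lowest young library was far above the highest adult library. The means were 225 ± 40.5 FPKM in young and 73.2 ± 18.6 FPKM in adults (SD, n = 3 each), 3.08-fold higher in young. THY1 fell by 1.63 on the log2 scale (SE 0.26, limma adjusted p = 0.00819), and the call held with each library left out in turn (adjusted p 0.0209 to 0.0381).

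MME (ENSBTAG00000002075), the peptidase used as the other stromal marker, went the opposite way. Its young levels of 5.01, 2.58 and 13.9 FPKM were the lowest of the 6 genes in each library. The adult levels were 30.3, 49.6 and 28.9 FPKM. Young replicate 3 was 5.39 times young replicate 2, the widest spread of the 6 genes within a group, yet the groups did not overlap. The mean rose 5.07-fold, from 7.16 ± 5.96 to 36.3 ± 11.6 FPKM (SD, n = 3 each), with a log2 fold change of 2.40 (SE 0.51, limma adjusted p = 0.0200). The call was lost without young replicate 1 (adjusted p = 0.0818) and without adult replicate 1, 2 or 3 (0.0665, 0.0862 and 0.0590).

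A2M (ENSBTAG00000018137), the secreted protease inhibitor, was the most abundant of the 6, the 46th of the 3970 named genes by mean FPKM. Its levels were 201, 606 and 238 FPKM in young and 93.0, 127 and 69.4 FPKM in adult libraries. Young replicate 2 was far above the other young libraries, and all adult libraries were below them. The means were 348 ± 224 and 96.3 ± 28.8 FPKM (SD, n = 3 each), 3.62-fold higher in young, and A2M fell by 1.71 on the log2 scale (SE 0.45, limma adjusted p = 0.0381). Without young replicate 2 it fell by 1.22 (adjusted p = 0.0451). The call was lost without any other library, at adjusted p of 0.0588 and 0.0583 without young replicates 1 and 3, and of 0.116, 0.0827 and 0.125 without adult replicates 1 to 3.

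Within young libraries the order of FPKM levels was A2M, THY1, CD163, JAM2, VWF and MME by the mean. The ranges of A2M and THY1 overlapped, as did those of VWF and MME, while THY1 and CD163, CD163 and JAM2, and JAM2 and VWF did not. In adults the order by the mean was A2M, THY1, VWF, MME, JAM2 and CD163. A2M and THY1 overlapped again, THY1 lay above VWF, the ranges of VWF, MME and JAM2 overlapped each other, and CD163 lay below all of them. By mean FPKM over the 6 libraries THY1 was the 89th, CD163 the 510th, JAM2 the 1037th, VWF the 1128th and MME the 1375th of the named genes.

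The young libraries had larger FPKM sums, so the difference of each gene depends on the scale. The 10 most abundant transcripts took 41.5% to 44.3% of the FPKM in young and 26.1% to 29.3% in adult libraries. After all libraries were rescaled to the same FPKM sum (TPM), the median log2 fold change of all features tested moved to 0.62, with 41.2% of them called higher and 4.73% lower. JAM2 then passed the test (log2 fold change 1.36, limma adjusted p = 0.00277) and A2M no longer did (log2 fold change −0.98, adjusted p = 0.107). CD163 kept its call at −1.54 (adjusted p = 0.00760), THY1 at −0.90 (0.0158), VWF at 2.41 (0.00243) and MME at 3.09 (0.00255). Relative to the shifted median, the TPM differences were −2.16 for CD163, −1.52 for THY1, −1.59 for A2M, 0.74 for JAM2, 1.79 for VWF and 2.48 for MME on the log2 scale. None of the 6 genes changed its direction under these scalings.

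**Figure D2:**
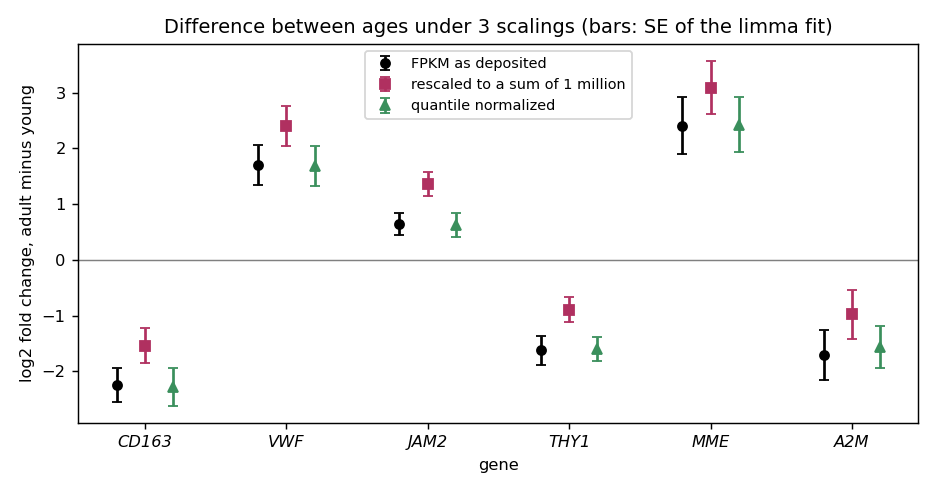
log2 fold change of mRNA (adult minus young) of the 6 marker genes, from FPKM as deposited, after rescaling all libraries to the same sum and after quantile normalization, with bars for the standard error of the limma fit. JAM2 moves from 0.65 to 1.36 and A2M from −1.71 to −0.98 when libraries are rescaled, and every gene stays on its side of 0.

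A ratio of 2 genes within a library does not depend on how the library was scaled. Of the 15 pairs among the 6 genes, 11 had ratios that did not overlap between young and adult libraries, and 4 overlapped. A gene below in all adult libraries, paired with a gene above in all of them, could not give overlapping ratios. The count is therefore mostly fixed by the levels of the single genes. Only VWF with JAM2 and JAM2 with MME were not fixed in this way, the latter with a gap of 0.05 on the log2 scale. The 11 each had an exact permutation p of 0.1, the smallest that 3 against 3 libraries allow, and 0.136 after adjustment over the 15 pairs, so none passed the threshold.

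The largest shift was between CD163 and MME. The log2 ratio of CD163 to MME was 4.14, 5.24 and 1.94 in young libraries and −1.34, −1.29 and −0.94 in adult libraries. CD163 was above MME in every young library and below it in every adult library, and the mean ratio was 31.1 times lower in adults, 18.7 times without young replicate 2 and 58.8 times without young replicate 3. CD163 also changed places with VWF, with a log2 ratio of CD163 to VWF of 2.52, 3.94 and 1.80 in young and −2.06, −0.56 and −1.45 in adult libraries. The ratio was 17.3 times lower in adults, and 11.5 times without young replicate 2.

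Between the 2 stromal genes, the log2 ratio of THY1 to MME was 5.16, 6.57 and 4.19 in young and 1.31, 0.87 and 0.89 in adult libraries, a mean 19.4 times lower in adults, and 12.5 times without young replicate 2. Within the endothelial pair, VWF was below JAM2 in every young library, with log2 ratios of −0.65, −1.70 and −0.43. In adult libraries the ratio of VWF to JAM2 was 0.63, −0.05 and 0.00, so VWF was 2.18 times higher relative to JAM2. The ratios of THY1 to A2M overlapped fully, at −0.17, −1.31 and 0.09 in young and −0.31, −0.48 and −0.37 in adults. The other overlapping pairs were CD163 with THY1, CD163 with A2M and VWF with MME (exact permutation p = 0.3 each, 0.321 adjusted).

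**Figure D3:**
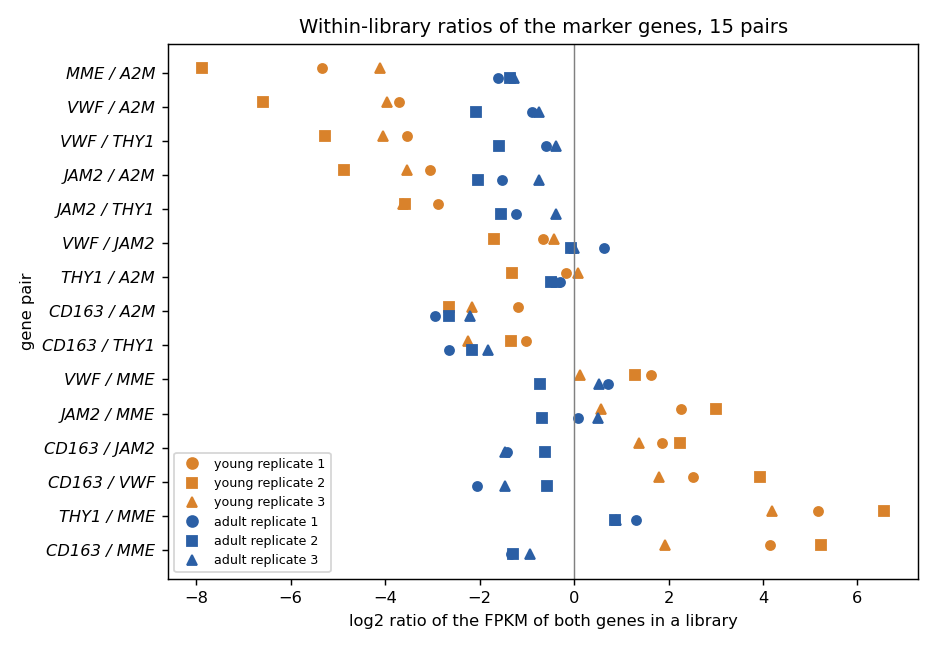
log2 ratio of the FPKM of both genes of each of 15 pairs, with 1 symbol per library, young libraries in orange and adult libraries in blue. The ratio of CD163 to MME runs from 1.94 to 5.24 in young and from −1.34 to −0.94 in adult libraries, while that of THY1 to A2M overlaps between the groups.

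The genes with the most similar profile were sought among 3868 named genes, by the root mean square difference of log2(FPKM + 1) over the 6 libraries after each gene was centred on its mean. For CD163 they were HMGB2 (0.16), PRRX1 (0.27) and RUNX1 (0.28), where the median over all genes was 1.26. For VWF they were ZPBP (0.13), BCO2 (0.18) and TSPAN12 (0.20), with a median of 0.96. JAM2 was closest to XRCC4 (0.12), SAMD8 (0.13) and UBE2Q2 (0.13), with a median of 0.47, and THY1 to PDAP1 (0.15), PSPC1 (0.21) and PA2G4 (0.22), with a median of 0.94. Close to MME were HSD17B12 (0.28) and ETNPPL (0.28), with a median of 1.34. A2M had PLXDC2 (0.31), CEP128 (0.32) and WBP4 (0.34), with a median of 1.09. Among the markers themselves, A2M and THY1 differed by 0.43, CD163 and THY1 by 0.53, CD163 and A2M by 0.55, VWF and JAM2 by 0.67 and MME and VWF by 0.69. The 0.67 was above the median of 0.47 for JAM2, to which VWF was only the 3005th nearest of 3868 genes. It was below the median of 0.96 for VWF, to which JAM2 was the 670th nearest. MME and THY1 differed by 2.10, above the median of 1.34 for MME, to which THY1 was only the 3784th nearest. Whether the cells that carried MME here were stromal was not tested. All profiles rest on the same 6 libraries.

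The circRNAs of the 6 genes were few and shallow. The 19 circRNAs held 77 back-spliced reads, 46 in young and 31 in adult libraries, and 10 of the 19 were read in 1 library only (52.6%, against 64.6% of all circRNAs). Single reads made up 7 of them, 4 were read in at least 3 libraries, and none in all 6. All 19 were of the exon type, and the table marks 18 as new and 1 of JAM2 as published. Positions below are on the cattle genome UMD3.1, as the table lists them.

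CD163 had 3 circRNAs on chromosome 5 that share the position 102254228 and end at 102270099, 102268356 and 102255297. The first was read 15 times in young replicate 2 and in no other library. The second was read once in young replicate 1 and 5 times in young replicate 2. Summed over the 3, young libraries held 1, 22 and 0 reads and each adult library held 0, so 22 of the 23 reads came from young replicate 2. The scaled sum was 19.7 ± 32.3 in young (SD, n = 3) and 0 in adults, at least 10.7-fold higher against a floor of 3 reads over the 3 adult libraries, but the groups overlapped (exact permutation p = 0.4), and without young replicate 2 a single read was left. Young replicate 1 had 88.4 FPKM of CD163 mRNA beside this 1 read.

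JAM2 had 4 circRNAs on chromosome 1, which share starts and ends in different combinations. The circRNA from 10104302 to 10105619 had 0, 0 and 1 reads in young libraries and 3, 3 and 2 reads in adult libraries. Every adult library held more reads than any young library. Its log2 fold change was 2.11 (SE 0.84), with a limma adjusted p of 0.158 over 2834 circRNAs read in at least 3 libraries. The longer circRNA from 10085617 to the same end had 0, 0 and 1 reads in young and 6, 1 and 0 reads in adult libraries (log2 fold change 1.238, adjusted p = 0.550). Summed over the 4, JAM2 had 0, 0 and 3 reads in young and 9, 5 and 2 in adults. The scaled sum was 1.42 ± 2.46 in young and 9.71 ± 6.91 in adults (SD, n = 3 each, exact permutation p = 0.2).

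THY1 had 1 circRNA, on chromosome 15 from 30511732 to 30512616, a span of 884 bases. Its reads numbered 8, 0 and 1 in young and 1, 0 and 0 in adult libraries, so young replicate 1 held 8 of its 10 reads. Its log2 fold change was −1.29 (SE 1.08, limma adjusted p = 0.582).

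MME had the most circRNAs, 8 on chromosome 1, built from 5 starts and 4 ends with spans of 4195 to 61872 bases. The position 113439881 closed 3 of them. Summed reads were 3, 0 and 5 in young and 1, 8 and 5 in adult libraries, with a scaled sum of 4.45 ± 3.88 and 8.12 ± 5.43 (SD, n = 3 each, exact permutation p = 0.4). The only one read at least 5 times, from 113435686 to 113439881, had 2, 0 and 1 reads in young and 1, 1 and 0 reads in adult libraries (log2 fold change −0.25, limma adjusted p = 0.894).

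VWF gave 1 circRNA with 1 read, in young replicate 1, and A2M gave 2 with 1 read each, in young replicates 2 and 3. Over the 4 circRNAs of these genes that could be tested, 0 passed the adjusted p in limma, 1 was under an unadjusted p of 0.05 (that of JAM2 from 10104302 to 10105619), and 0.882% of all circRNAs tested were called in either direction. The summed level of each of the 6 genes had an exact permutation p of 0.2 to 1, and 0.6 to 1 after adjustment over the 6. With 3 libraries a group the permutation test could not pass 0.05 for any sum.

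**Figure D4:**
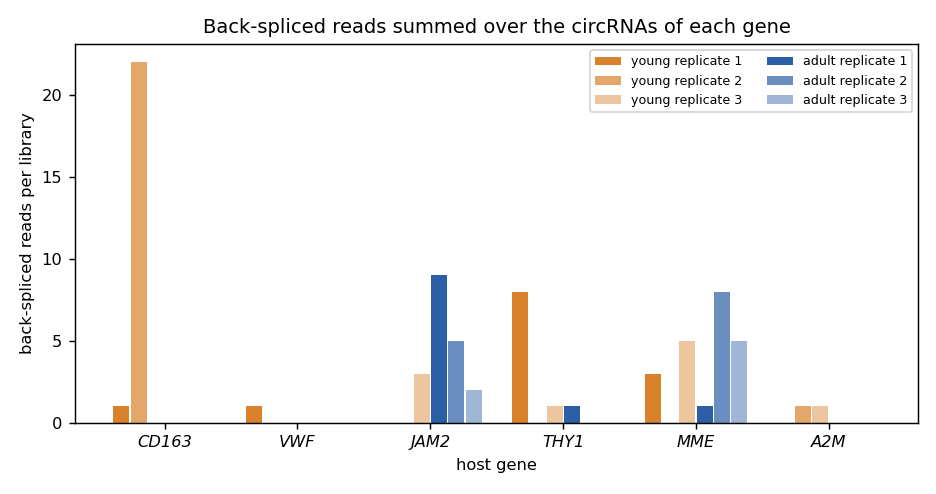
Back-spliced reads summed over the circRNAs of each marker gene, with 1 bar per library, young libraries in orange and adult libraries in blue. The bar of CD163 in young replicate 2 holds 22 of its 23 reads, and A2M and VWF have at most 1 read in a library.

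The number of circRNA reads per mRNA level differed widely between the genes. Over all libraries MME gave 101 back-spliced reads per 100 FPKM of mean mRNA level, JAM2 gave 67.0 and CD163 gave 48.2, beside a median of 50.2 over 3869 host genes. These values rest on few reads and in part on 1 library. Without young replicate 2, CD163 gave 2.65, and without adult replicate 1, JAM2 gave 36.3. THY1 gave 6.70, but 1.39 without young replicate 1. The 3.79 of VWF is a single read, and the 0.900 of A2M is 2 reads, with 0.456 without young replicate 3. A2M had the highest mRNA level of the 6, and only 30 host genes (0.775%) gave fewer reads per FPKM. Genes without any circRNA could not be named and are outside this comparison.

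Other marker genes of the same cell types were counted in lists that hold the 6 genes except A2M. Of 19 macrophage genes 5 could be named and tested, and 2 were lower and none higher in adults. The median log2 fold change of the 5 was −0.84, and −0.18 on the TPM scale, where that of all features tested was 0.62. The other gene that was lower was F13A1, the A subunit of clotting factor XIII, made by tissue macrophages, which fell by 2.19 on the log2 scale (47.0 ± 9.22 to 9.57 ± 2.34 FPKM, limma adjusted p = 0.00199). The mannose receptor MRC1 was at 82.3 ± 50.6 and 47.3 ± 11.2 FPKM (−0.62, adjusted p = 0.373, and 0.10 on the TPM scale, where the direction turns), and the scavenger receptor MSR1 at 29.7 ± 16.4 and 15.1 ± 7.52 FPKM (−0.84, adjusted p = 0.290, and −0.15 on the TPM scale). The FPKM of the 5 genes summed to 240 to 253 in young and 70.6 to 112 in adult libraries.

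Of 19 endothelial genes 9 were tested, and VWF was higher, MMRN1 lower, and 7 did not pass. The median log2 fold change was 0.65. MMRN1, multimerin 1, a secreted protein of platelets and endothelium, fell by 2.17 on the log2 scale (36.0 ± 17.6 to 6.80 ± 1.79 FPKM, SE 0.35, limma adjusted p = 0.00839). PECAM1, an adhesion molecule of all endothelium, was at 89.2 ± 28.1 and 109 ± 5.38 FPKM (0.33, adjusted p = 0.374), and the VEGF receptor KDR at 36.8 ± 22.4 and 95.4 ± 19.8 FPKM (1.53, adjusted p = 0.0606). On the TPM scale 8 of the 9 were called higher and MMRN1 lower, where 41.2% of all features were called higher. The count of genes called higher was 4 without young replicate 3 and 0 without adult replicate 1, 2 or 3. The 9 genes summed to 241 to 432 FPKM in young and 441 to 519 FPKM in adult libraries.

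Of 17 stromal genes 5 were tested, and MME was higher, THY1 lower, and 3 did not pass. The median log2 fold change was −0.29, and 0.42 on the TPM scale, so it turned its sign. The median of all features tested was 0.01 and 0.62 on these scales, and the stromal median was below it on both. The fibrillar collagen COL3A1 was at 1092 ± 480 and 858 ± 223 FPKM (−0.26, limma adjusted p = 0.683, but 0.48 on the TPM scale and 0.78 after quantile normalization, where the direction turns). The microfibril gene FBN1 was at 198 ± 40.4 and 128 ± 33.5 FPKM (−0.64, adjusted p = 0.126, and 0.09 on the TPM scale). The count called higher was 0 without young replicate 1 and without adult replicate 1, 2 or 3.

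Markers of further cell types were also measured. Of 6 adipocyte genes out of a list of 15, 3 were higher in adults and none lower, with a median log2 fold change of 2.25. LPL, which frees fatty acids from lipoproteins, had a log2 fold change of 3.74 (limma adjusted p = 0.00940), DGAT2, which makes triglyceride, 4.16 (0.0315), and ACACA, of fatty acid synthesis, 3.097 (0.00169). The DGAT2 call was lost without young replicate 1 (0.0995) and without adult replicate 1, 2 or 3 (0.108, 0.104 and 0.0850), and the count called higher ranged from 2 to 4 with 1 library left out. CIDEC and PLIN4, both of the lipid droplet, had 0.97 (0.218) and 1.41 (0.182). The 6 adipocyte genes summed to 1219, 398 and 2378 FPKM in young and 8598, 6485 and 4937 FPKM in adult libraries. Young replicate 2, the lowest here, was also the lowest for VWF and MME and the highest for A2M and CD163 mRNA. It held 22 of the 23 CD163 circRNA reads. Young replicate 3, the highest of the young here, was the highest of the young for MME and the lowest for CD163. It was also the highest of the young for THY1, which was lower in adults. Among the adult libraries, replicate 1 was the highest here and for VWF, while MME was highest in replicate 2 and JAM2 in replicate 3. The part of adipocyte RNA in the differences of the 6 genes was not tested.

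Of 11 smooth muscle and pericyte genes 2 were tested. The myosin gene MYH11 fell by 2.22 on the log2 scale (79.9 ± 45.9 to 14.98 ± 4.40 FPKM, limma adjusted p = 0.0154), a call lost without adult replicate 1 (0.0574) or adult replicate 2 (0.0704), and the receptor NOTCH3 had 0.63 (adjusted p = 0.0994). The lymphoid genes, 3 of 13 tested and none called, summed to 46.1, 8.58 and 6.20 FPKM in young and 2.96 to 3.82 FPKM in adult libraries. Young replicate 1 was the high one, with 28.7 FPKM of PTPRC, the common leukocyte antigen, beside 5.60 and 4.28 in the other young libraries, and 14.7 FPKM of IKZF1, a lymphocyte transcription factor, beside 2.86 and 1.56. PTPRC is also on macrophages. THY1 was the lowest of the young in that library and CD163 in the middle, and the part of leukocyte RNA in the differences was not tested. KIT of mast cells (−0.64, adjusted p = 0.0627), PROX1 of lymphatic endothelium (−1.05, adjusted p = 0.104) and ERBB3 of Schwann cells (−0.32, adjusted p = 0.376) did not pass. KIT was called lower only without young replicate 2 (limma adjusted p = 0.0451), and PROX1 only without young replicate 3 (0.0443). On the TPM scale KIT was at −0.01 and ERBB3 at 0.30, where its direction turns. Both were below the 0.62 that was the median of all features tested on that scale.

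**Figure D5:**
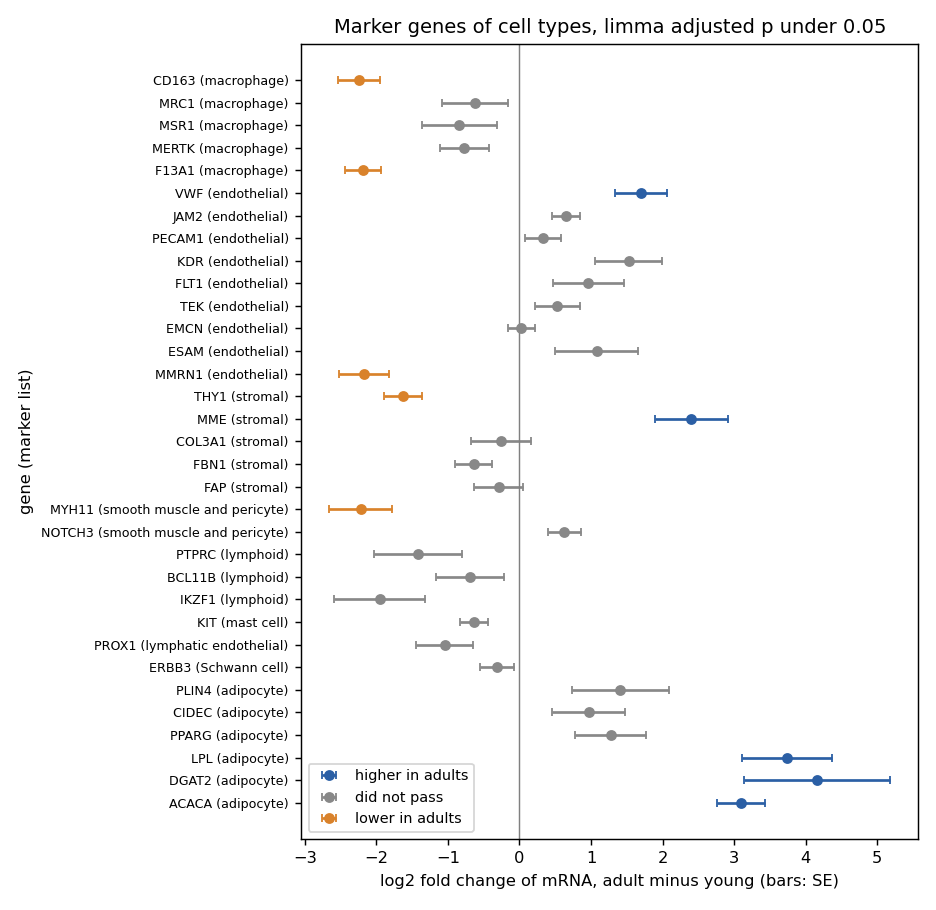
log2 fold change of mRNA (adult minus young, bars for the standard error) of the marker genes tested, grouped by list, with genes called higher in adults in blue, lower in orange and the rest in grey. CD163 and F13A1 lie near −2.2, the called adipocyte genes lie between 3.097 and 4.16, and the stromal pair THY1 and MME lies on opposite sides of 0.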

How the data were processed

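RNA of subcutaneous adipose tissue was sequenced from 6 buffaloes, and the tables the authors deposited were used without reprocessing reads. The authors trimmed reads with Trim Galore and took cattle UMD3.1 with its Ensembl annotation as reference. The paper names STAR and CIRCexplorer2 for calling circRNAs. It reports far fewer circRNAs than the 14990 listed in the data used here, and what separates the 2 sets is not stated. The deposited log2 values are log2(x + 1), where x is scaled back-spliced reads for circRNAs and, as read from the values and tools since the table names no unit, FPKM for transcripts. The tool that made the FPKM is not given in the sources used here. TopHat2 2.0.14 and Cufflinks stand in the submitters' processing notes, with no role given. The authors mapped buffalo reads to cattle, so reads of diverged genes can be lost. Back-spliced reads were recovered as whole multiples of 1 step per library (100% of values, tolerance 0.01). The authors' columns of fold changes, p-values and their lists of differential RNAs were not used.

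Samples were grouped by the age in the labels. Symbols came from the hosts of circRNAs, so a gene without a circRNA could not be named, and 21 circRNAs whose symbol had turned into a number were left unnamed. FPKM was summed over those Ensembl transcripts of a named gene that were listed for circRNAs. Other Ensembl transcripts entered singly, and 58053 assembled transcripts entered only an alternative. Adult minus young was tested with limma 3.58.1 (R 4.3.3, eBayes with trend, Benjamini-Hochberg, threshold 0.05, pseudocount 1, mean FPKM at least 0.5), and circRNAs on the deposited scale where read in at least 3 of 6 libraries. Ratios and summed circRNA levels were compared by two-sided exact permutation tests (scipy 1.17.1). A group without reads was given a floor of 3 reads, which covers counting error only. Nothing says how the animals relate, so p-values measure the spread between these libraries. The mean estimates of the fits were checked on simulated data with normal noise, which does not test the calls or the sparse circRNA reads.

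Genes named are the 6 markers, up to 4 called genes per list with the largest change and up to 2 with the highest FPKM that did not pass, the 3 nearest profiles, and circRNAs of at least 5 reads. A gene among the nearest profiles is not reported here. Other circRNAs, libraries and sums were singled out after their values were seen. The members and lists were chosen with earlier results of these data known. Alternatives changed the pseudocount, filter, scaling, trend, transcripts and libraries used, and added the replicate number as a block.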

Additional observations from a re-analysis of the deposited data

How the results depend on the processing

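No difference of the 6 genes turned its direction under any alternative, and CD163 and THY1 kept their calls in all of them. Some other genes of the lists did turn, such as MRC1, COL3A1, FBN1 and ERBB3 on the TPM scale. Without the filter on FPKM, VWF (log2 fold change 1.70, adjusted p = 0.0520), MME (2.40, 0.0562) and A2M (−1.71, 0.0867) lost their calls, which left 0 called higher, and with assembled transcripts A2M did (−1.71, 0.0784). In the first of these 21232 features were tested and in the second 43708. On the TPM scale JAM2 gained a call (1.36) and A2M lost it (−0.98). With 1 library left out, the log2 fold change ranged from 1.31 to 1.90 for VWF, 0.52 to 0.72 for JAM2, 1.94 to 2.96 for MME, −2.01 to −1.22 for A2M, −2.51 to −2.07 for CD163 and −1.79 to −1.42 for THY1, and 0 to 2 of the 6 were called higher and 2 or 3 lower. Counts over lists were recomputed under alternatives chosen after the data were seen. On the TPM scale 8 endothelial, 6 adipocyte and 1 smooth muscle gene were called higher. With 1 library left out, 0 to 4 endothelial, 2 to 4 adipocyte and 0 to 1 stromal genes were higher, and 0 to 1 smooth muscle and 0 to 1 lymphoid genes lower. The mast cell and lymphatic endothelial lists likewise had 0 to 1 lower. Over all features, 1542 were called higher and 1366 lower, against 6051 and 695 on the TPM scale, and 366 to 1688 and 552 to 1333 with 1 library left out.

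The labels number the libraries of each age 1 to 3 without saying that a number is shared, and same-numbered libraries did not deviate together (r = −0.07, −0.03 and −0.12). With the replicate block, 671 features were called higher and 793 lower, and all calls of the 6 genes held, with CD163 at −2.24 (limma adjusted p = 0.0120) and MME at 2.40 (0.0467). None of the 4 circRNAs tested was called in any alternative, although calls over all circRNAs moved from 3 higher and 22 lower to 3 and 8 with equal totals of reads, 20 and 70 when read in at least 2 libraries, 4 and 79 without a trend and 27 and 107 with the block, and to 0 or 1 higher and 0 to 14 lower with 1 library left out. Of the 15 ratios only that of THY1 to A2M turned its sign, in 1 alternative. With 1 library left out, the fold of CD163 to MME between ages ranged from 18.7 to 58.8, of THY1 to MME from 12.5 to 28.6 and of MME to A2M from 9.87 to 36.6. Each marker gene had 1 transcript listed for its circRNAs, so taking its highest one changed nothing. Any other transcripts of these genes could not be named. FPKM carries no depth, so no counting precision could be given for low levels such as MME in young, and 13 of the 19 circRNAs had fewer than 5 reads.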
